A study of Mus musculus with 16 samples.

Results

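The genes described here carry glucose and fructose into the cell and pass them through glycolysis, the pentose phosphate pathway, pyruvate entry into mitochondria, and glycogen synthesis and breakdown. They were chosen by name, from a list of 40 symbols, with earlier results of these data known. Of these, 39 were found among the 16091 genes of the deposited mouse expression table, and Pklr was not analysed here. Aldoc, at 3.296 to 15.02 normalized counts, did not pass the filter on low values, and neither did a second row named Aldoa, at 2.908 to 19.81 normalized counts. The remaining 38 genes were tested. Messenger RNA came from the inguinal white fat, a subcutaneous depot of the groin, of C57BL6/J mice. Mice on a control diet or a high-fat diet were either untreated or given an antibody, which makes 4 groups of 4 libraries. The antibody, AF1447, binds PDGFcc, a growth factor ligand, and was given by intraperitoneal injection from 6 weeks of age for 2 weeks, with a dose of 50 mg/kg every 2 days and a volume of 100 µl. No genetic modification is named for any group. The sources used here do not give the composition and duration of the diets, what the untreated mice were injected with, or whether each library is a separate animal. The p-values therefore measure only how far these samples spread, and some of that spread may be technical.

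In a fat cell, insulin brings the transporter Slc2a4 (GLUT4) to the surface, hexokinase traps the glucose as glucose 6-phosphate, and that molecule can go down glycolysis, into the pentose phosphate pathway or into glycogen. The pentose phosphate pathway yields NADPH, which fatty acid synthesis consumes, and pyruvate entering mitochondria yields the citrate from which the cytosolic acetyl-CoA for fat is made. White adipose tissue stores little glycogen, and thermogenic fat cells, which can appear among white ones in this depot, take up and burn much glucose.

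Values are normalized counts, the authors' linear signal per gene, and changes are differences of log2(value + 1), high-fat minus control unless another direction is given. A gene is said to have risen or fallen where limma's adjusted p was under 0.05. Per kilobase of exon and averaged over all 16 libraries, the most abundant of the tested genes was Aldoa at 20790 normalized counts per kilobase, followed by Pcx at 10540, Ldha at 7987, Taldo1 at 6464 and Tkt at 5995. Slc2a1 at 102.3, Hk1 at 122.2 and Slc2a5 at 133.2 normalized counts per kilobase were the lowest.

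Each library held a total of 24.02 to 28.15, counted in 1e6 normalized counts, and its depth in reads is unknown. The 8 mature adipocyte markers, among them Adipoq and Plin1, summed to 770100 to 1024000 normalized counts in every library, and their diet change had a median of 0.0022. Other marker lists differed between libraries. The 9 thermogenic adipocyte markers, led by Ucp1, summed to 5013 to 87340 (untreated) and 13110 to 55740 (antibody) on control diet, against 3018 to 17460 and 2689 to 17820 on high-fat diet. With high-fat diet averaged over antibody, 0 of these 9 markers rose, 3 fell, and the median log2 change was −1.61. Over all tested genes 11.1% fell and 8.28% rose. The 14 skeletal muscle markers, among them Acta1 and Ckm, reached 625400 in untreated high-fat replicate 2 and 163700 to 209000 in control-diet antibody replicates 1, 2 and 4, against 202.0 in high-fat antibody replicate 1. Ckm was at 0 in high-fat antibody replicates 1 and 3. In bulk tissue, fewer cells of a type and less RNA per cell cannot be told apart.

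The libraries also differed among themselves over the 38 genes. The median deviation from each gene's mean over 16 libraries was 1.08 on the log2 scale in untreated control-diet replicate 3 and 0.836 in replicate 4, but −0.245 in replicate 1, where 7 of the 38 genes were above their own mean. It lay between 0.128 and 0.690 in the 4 control-diet antibody libraries and between −0.660 and −0.147 in the 8 high-fat libraries. Untreated control-diet replicate 1 was thus the only control-diet library below 0, and it also had the lowest thermogenic marker sum of its group, 5013 normalized counts with Ucp1 at 206.8. Of the 8 control-diet libraries it had the highest macrophage marker sum, 45780 against 23110 to 37520 in the others, the lowest mature adipocyte sum, 792500, and the lowest blood sum, 9581. Replicate 3, the highest for the sugar genes, had the highest thermogenic sum, 87340, with Ucp1 at 44770.

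**Figure D1:**
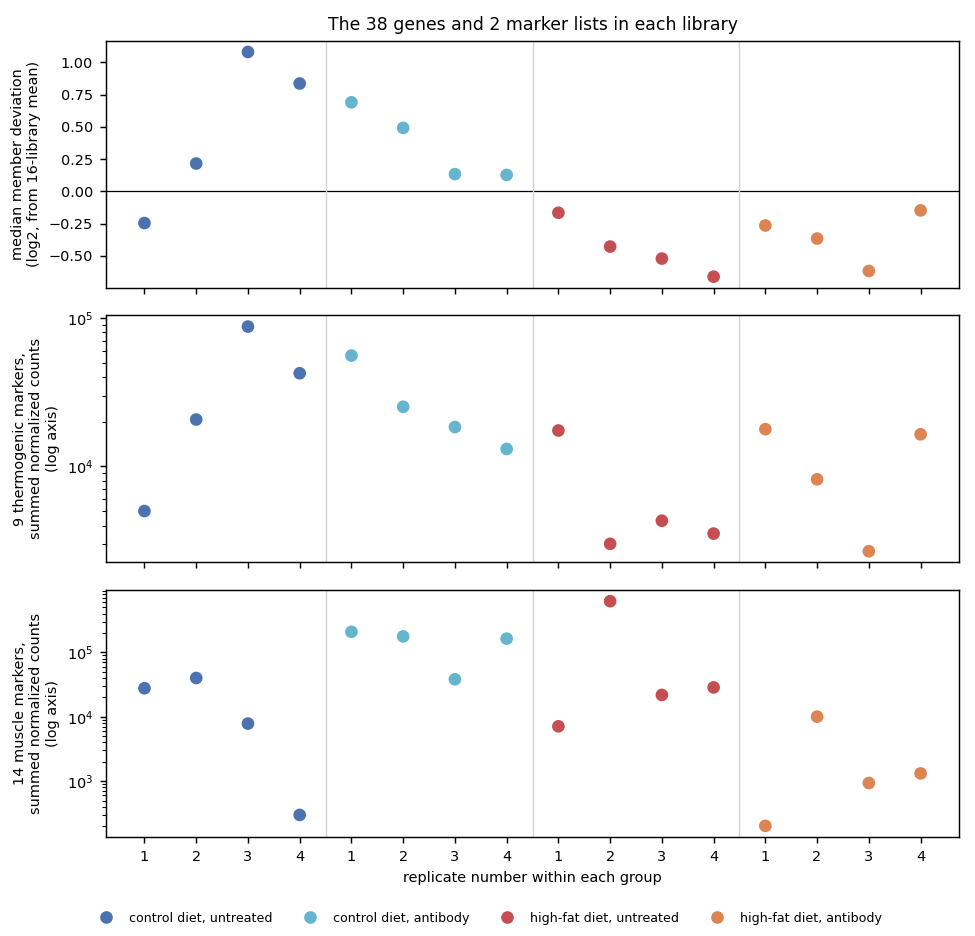
Median log2 deviation of the 38 tested genes from their own means over 16 libraries (top), summed normalized counts of 9 thermogenic markers (middle, log axis) and of 14 muscle markers (bottom, log axis), 1 point per library, by group and replicate number. All 8 high-fat libraries lie below 0 in the top panel, as does untreated control-diet replicate 1 at −0.245, which also has the lowest thermogenic sum of the control-diet libraries.

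High-fat diet lowered most of the sugar genes. Averaged over the untreated and antibody libraries, 29 of the 38 genes fell and 0 rose, where 11.1% of all 14189 tested genes fell and 8.28% rose. The median log2 change was −0.798, against 0.0222 over all tested genes, and 14 genes were at least 2-fold lower. Falls occurred at every step: 3 of 4 genes of sugar transport and fructose entry, 10 of 15 of glycolysis, 5 of 5 of the pentose phosphate pathway, 7 of 9 of pyruvate entry and 4 of 5 of glycogen metabolism. In 30 genes all 8 high-fat libraries lay below the median of the 8 control-diet libraries. For this count and the 2-fold count the share over all tested genes was not computed. In 4 genes, Pgd, Tkt, Pcx and Pygl, the 8 high-fat libraries lay wholly below the 8 control-diet libraries, where 0.832% of all tested genes did, and in 0 wholly above, where 0.437% did. With each of the 16 libraries left out in turn, 25 to 32 genes fell, and 25 of the 29 passed every time.

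The falls ran alongside the thermogenic markers. With the thermogenic score as a covariate, the number of genes that fell dropped from 29 to 13. The median change of all 38 genes went from −0.798 to −0.419, and the calls over all genes from 2757 to 187. With the muscle score as a covariate, 31 genes fell. Without the 4 libraries of most muscle RNA the median was −0.689 and 0 genes passed, members or others, in a fit that left control-diet antibody with 1 library.

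**Figure D2:**
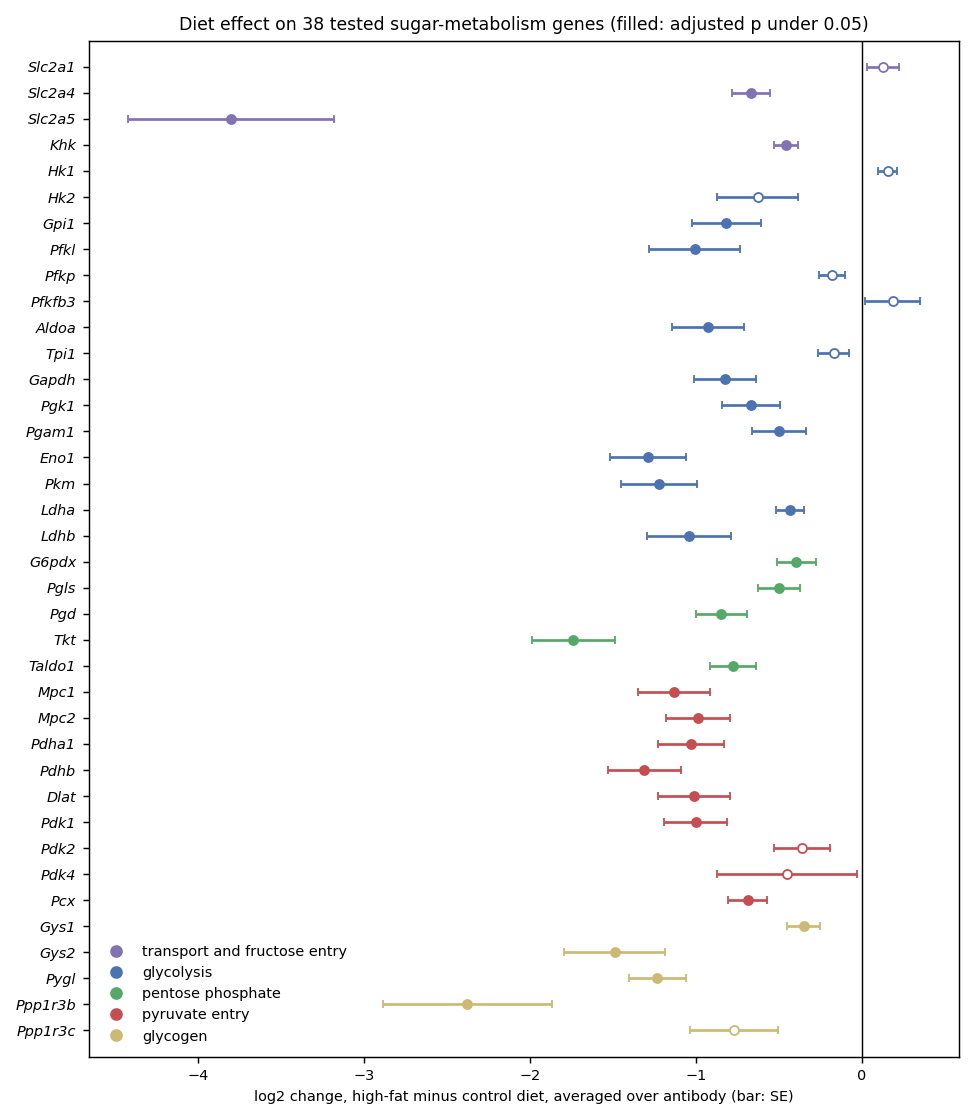
Change of each of the 38 tested genes with high-fat diet, averaged over antibody (x axis, log2, high-fat minus control; bars are standard errors), ordered and coloured by step; filled points have a limma adjusted p under 0.05. The 29 filled points all lie left of 0, and Slc2a5 lies farthest, at −3.80.

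Among the transporters and the entry of fructose, 3 genes fell and Slc2a1 did not pass. Slc2a5, the fructose transporter GLUT5 (ENSMUSG00000028976, chromosome 4, 150119283 to 150144169 in GRCm38), had the largest change of the 38. It stood at 175.4, 601.8, 1097 and 1410 normalized counts in untreated control-diet replicates 1 to 4 and at 1268, 976.9, 520.2 and 509.7 in the control-diet antibody libraries. On high-fat diet it was 126.8, 19.72, 26.39 and 3.249 untreated, and 147.2, 100.8, 33.49 and 236.2 with antibody. Only 1 pair of libraries crossed, high-fat antibody replicate 4 being above untreated control-diet replicate 1, and Slc2a5 was 13.9-fold lower on high-fat diet (log2 change −3.80, SE 0.62, adjusted p = 0.00394).

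Slc2a4, the insulin-responsive glucose transporter GLUT4 (ENSMUSG00000018566, chromosome 11, 69942539 to 69948188), stood at 6966, 8244, 12740 and 11530 normalized counts in untreated control-diet libraries and at 10680, 10670, 8863 and 9014 with antibody. The high-fat values were 6293, 6257, 4504 and 5630 untreated, and 6326, 7003, 6407 and 6672 with antibody. The diets met only between untreated control-diet replicate 1 and high-fat antibody replicate 2, and Slc2a4 fell 1.59-fold (log2 change −0.67, SE 0.115, adjusted p = 0.00498). Khk, ketohexokinase, which phosphorylates fructose, went from 461.4 ± 45.2 and 504.4 ± 16.57 normalized counts (SD, n = 4; untreated and antibody) to 336.5 ± 21.04 and 369.2 ± 53.49 (log2 change −0.46, SE 0.0714, adjusted p = 0.00352). Its 4 untreated high-fat libraries, at 322.1 to 367.7, were all below the 4 untreated control-diet libraries, at 400.8 to 503.6. Slc2a1, the basal glucose transporter GLUT1, stood at 276.3 to 425.7 normalized counts on control diet and 315.0 to 466.6 on high-fat diet, with overlapping groups (log2 change 0.126, adjusted p = 0.352). After adjustment for the thermogenic score, Slc2a5 (−2.27, adjusted p = 0.0147) and Khk (−0.35, adjusted p = 0.0386) passed, and Slc2a4 was at −0.47 (adjusted p = 0.056).

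**Figure D3:**
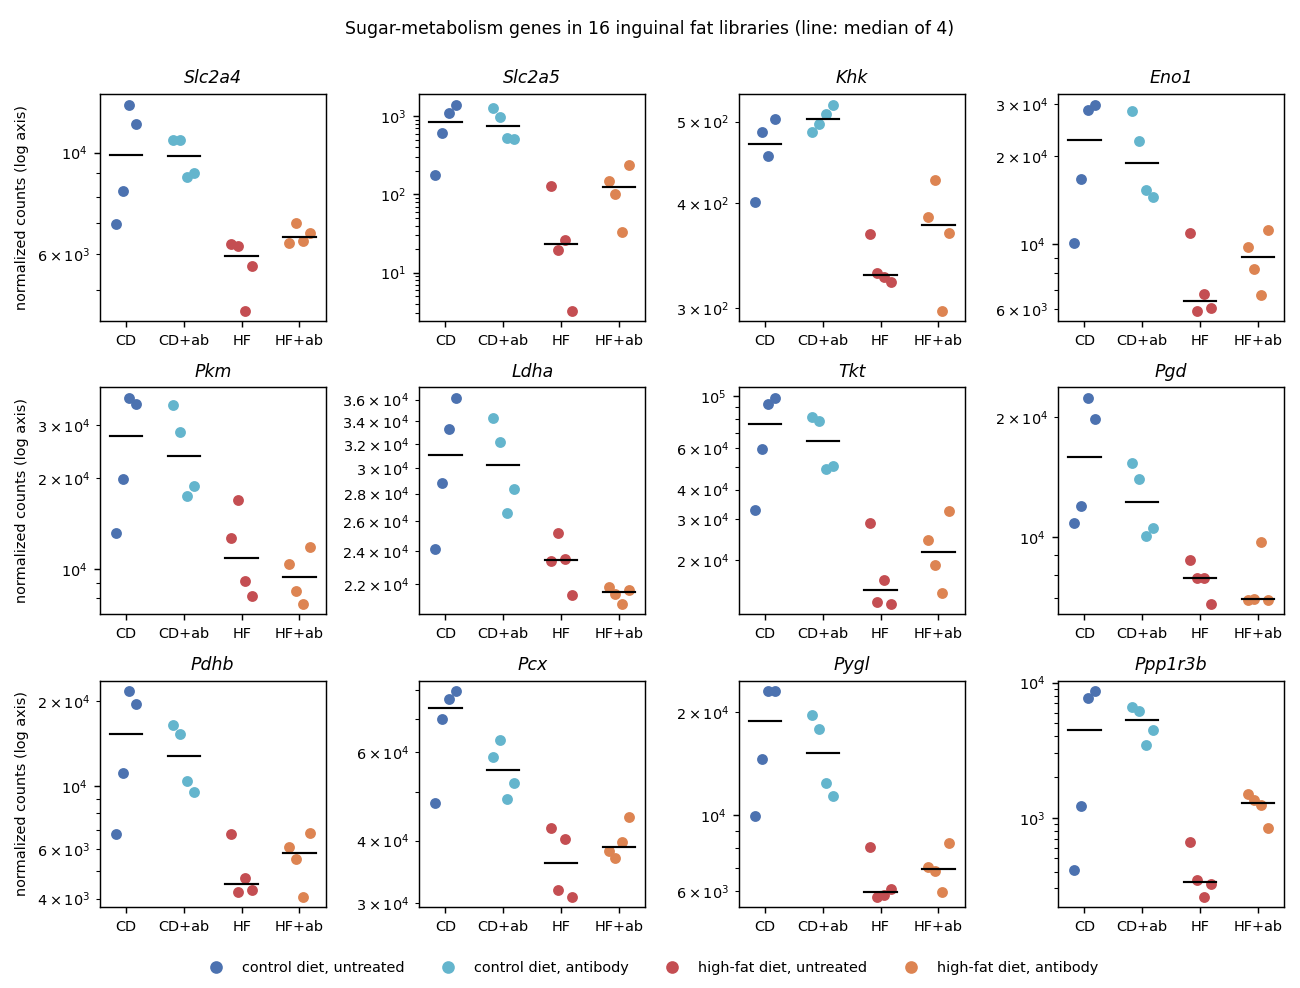
Normalized counts (log axes) of 12 of the genes in each library, by group: CD control diet, HF high-fat diet, ab antibody; each point is 1 library and the line is the median of 4. High-fat libraries lie mostly below control-diet libraries, without overlap for Tkt, Pgd, Pcx and Pygl. Untreated control-diet replicate 1 is the lowest point of its group in every panel.

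In glycolysis the enzymes from glucose 6-phosphate isomerase to lactate dehydrogenase fell, while the hexokinases, Pfkp, Pfkfb3 and Tpi1 did not pass. The steepest of these falls were in Eno1 and Pkm. Eno1, enolase, which makes phosphoenolpyruvate (ENSMUSG00000063524, chromosome 4, 150236721 to 150248879), stood at 10110, 16660, 28560 and 29910 normalized counts in untreated control-diet libraries and at 28340, 22550, 15340 and 14480 with antibody. On high-fat diet it was 10920, 5936, 6759 and 6067 untreated, and 9803, 8238, 6706 and 11180 with antibody. Apart from untreated control-diet replicate 1, every control-diet library exceeded every high-fat library, and Eno1 fell 2.44-fold (log2 change −1.29, SE 0.229, adjusted p = 0.00554). Pkm, pyruvate kinase, which makes pyruvate (ENSMUSG00000032294, chromosome 9, 59656368 to 59679375), stood at 13170, 19850, 36880 and 35150 untreated and 34910, 28470, 17440 and 18850 with antibody on control diet. It was 12620, 16910, 9135 and 8108 untreated and 10380, 8430, 7656 and 11780 with antibody on high-fat diet, a 2.34-fold fall (log2 change −1.22, SE 0.231, adjusted p = 0.00664). Exons of Pkm share sequence with those of Gm49759 on the same strand, so its counts are uncertain to that extent.

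The other glycolytic genes that fell ranged from Ldhb to Ldha in size. Both encode lactate dehydrogenase subunits: Ldhb fell by 1.04 on the log2 scale (SE 0.253, adjusted p = 0.0144) and Ldha, the more abundant per kilobase of exon, by 0.44 (SE 0.0839, adjusted p = 0.00719). Between them lay Pfkl, a phosphofructokinase isoform (−1.01, adjusted p = 0.0226), Aldoa, aldolase (−0.93, adjusted p = 0.0132), and Gapdh, glyceraldehyde 3-phosphate dehydrogenase (−0.83, adjusted p = 0.0119). Gpi1, the isomerase after hexokinase, changed by −0.82 (adjusted p = 0.0174), Pgk1, phosphoglycerate kinase, by −0.67 (adjusted p = 0.0199), and Pgam1, phosphoglycerate mutase, by −0.50 (adjusted p = 0.0435). The Pgam1 call held in 4 of the 16 fits with a library left out and the Pfkl call in 15. Gapdh is often used as a reference gene in tissue RNA work. Its values were 15060 to 30620 normalized counts on control diet and 9553 to 19780 on high-fat diet.

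Hk2, the insulin-regulated hexokinase, stood at 2890 to 11860 normalized counts on control diet and 2984 to 4789 on high-fat diet (log2 change −0.63, SE 0.244, adjusted p = 0.0808). Hk1, the other hexokinase, was 888.7 to 1155 against 1053 to 1123 (log2 change 0.155, adjusted p = 0.0640). Neither passed with all libraries, and each did in 2 of the 16 fits with a library left out. Without untreated control-diet replicate 1, Hk2 was at −0.79 (adjusted p = 0.0107) and Hk1 at 0.19 (adjusted p = 0.00821). In that fit the calls over all genes went from 2757 to 4721. With the thermogenic score as a covariate, Hk2 was at −0.19 (adjusted p = 0.727) and Hk1 at 0.11 (adjusted p = 0.413). Pfkfb3, which makes the activator of phosphofructokinase, fructose 2,6-bisphosphate, had a change of 0.185 (adjusted p = 0.427), Tpi1, triosephosphate isomerase, −0.17 (adjusted p = 0.194), and Pfkp, a phosphofructokinase isoform, −0.18 (adjusted p = 0.122). Untreated high-fat replicate 2 was the library with the highest muscle sum. It held the highest values of its group for Aldoa (77560 normalized counts), Ldha (25190), Gapdh (19780), Pkm (16910), Tpi1 (14170), Pgk1 (1459) and Hk1 (1123). Its values for Eno1 (5936) and Pfkl (2641) were the lowest of the group. The part of muscle RNA in these values was not tested. With the thermogenic score as a covariate, Eno1 (−0.70, adjusted p = 0.0148) was the only glycolytic gene of the 10 that passed, and the other 9 lay between −0.77 for Pkm (adjusted p = 0.0819) and −0.099 for Pgam1 (adjusted p = 0.655).

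All 5 pentose phosphate genes fell. Tkt, transketolase, of the non-oxidative branch (ENSMUSG00000021957, chromosome 14, 30548359 to 30574720), stood at 32900, 59520, 92320 and 98650 normalized counts in untreated control-diet libraries and at 81490, 78830, 49130 and 50380 with antibody. The high-fat values were 28770, 13290, 16530 and 13030 untreated, and 24420, 19110, 14540 and 32550 with antibody. The highest high-fat library lay just under the lowest control-diet library, and Tkt was 3.34-fold lower (log2 change −1.74, SE 0.251, adjusted p = 0.00276). Pgd, 6-phosphogluconate dehydrogenase, an NADPH-producing enzyme of the oxidative branch (ENSMUSG00000028961, chromosome 4, 149149991 to 149166771), ranged from 10040 to 22430 on control diet and from 6783 to 9736 on high-fat diet. It fell 1.80-fold (log2 change −0.85, SE 0.152, adjusted p = 0.00572), with no overlap between diets. Taldo1, transaldolase, fell 1.72-fold (log2 change −0.78, SE 0.138, adjusted p = 0.00554), Pgls, the lactonase, 1.41-fold (−0.50, SE 0.126, adjusted p = 0.0168), and G6pdx, glucose 6-phosphate dehydrogenase, which opens the pathway, 1.31-fold (−0.40, SE 0.118, adjusted p = 0.0321). G6pdx had the smallest change of the 5, and its call held in 8 of the 16 fits with a library left out. Under the thermogenic covariate, Tkt (−1.09, adjusted p = 0.00155) and Taldo1 (−0.44, adjusted p = 0.0211) passed. Pgd was at −0.65 (adjusted p = 0.0749), G6pdx at −0.26 (adjusted p = 0.341) and Pgls at −0.20 (adjusted p = 0.236).

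Of the pyruvate entry genes 7 fell, and the kinases Pdk2 and Pdk4 did not pass. Pdhb, the E1 beta subunit of pyruvate dehydrogenase (ENSMUSG00000021748, chromosome 14, 8165996 to 8173025), stood at 6773, 11140, 21720 and 19450 normalized counts in untreated control-diet libraries and at 16400, 15230, 10390 and 9495 with antibody. On high-fat diet it was 6786, 4232, 4733 and 4297 untreated, and 6103, 5539, 4056 and 6811 with antibody. Only untreated control-diet replicate 1 came within the high-fat range, and Pdhb fell 2.48-fold (log2 change −1.31, SE 0.221, adjusted p = 0.0045). Pdha1, the E1 alpha subunit (2.04-fold), Dlat, the E2 subunit (2.02-fold), Mpc1 and Mpc2, the subunits of the mitochondrial pyruvate carrier (2.19-fold and 1.99-fold), and Pdk1, a kinase that inhibits the dehydrogenase (2.0-fold), fell too, with adjusted p between 0.00686 and 0.00978.

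Pcx, pyruvate carboxylase, which makes oxaloacetate (ENSMUSG00000024892, chromosome 19, 4510472 to 4621752), stood at 47500, 70010, 76700 and 79530 normalized counts in untreated control-diet libraries and at 58750, 63510, 48510 and 52030 with antibody. In high-fat libraries it was 42410, 31920, 40320 and 30880 untreated, and 38060, 37000, 39760 and 44590 with antibody. No high-fat library reached the control-diet range, and the fall was 1.61-fold (log2 change −0.69, SE 0.117, adjusted p = 0.00461). The inhibitory kinases Pdk2 (−0.36, adjusted p = 0.136) and Pdk4 (−0.45, adjusted p = 0.456) did not pass. Pdk4 ranged from 2818 to 21310 normalized counts in the 4 untreated control-diet libraries. All 7 pyruvate entry genes that fell also passed with the thermogenic score as a covariate, with changes from −0.74 for Pdhb to −0.43 for Dlat.

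Of the glycogen genes 4 fell, and the largest change was in Ppp1r3b, a targeting subunit that brings protein phosphatase 1 to glycogen and thereby activates glycogen synthase. Ppp1r3b (ENSMUSG00000046794, chromosome 8, 35375739 to 35388139) stood at 413.9, 1230, 7678 and 8684 normalized counts in untreated control-diet libraries and at 6638, 6140, 3459 and 4423 with antibody. On high-fat diet it was 661.6, 345.1, 259.5 and 321.1 untreated, and 1493, 1344, 1232 and 832.4 with antibody. Its untreated control-diet libraries ran from 413.9 to 8684, with replicates 1 and 2 inside the high-fat range, and the averaged fall was 5.20-fold (log2 change −2.38, SE 0.509, adjusted p = 0.00949). Gys2, the liver form of glycogen synthase (ENSMUSG00000030244, chromosome 6, 142422613 to 142473109), stood at 770.2, 981.8, 3123 and 1425 untreated and 1515, 972.9, 736.4 and 842.4 with antibody on control diet. The high-fat values were 794.0, 257.8, 238.0 and 224.2 untreated and 570.8, 428.8, 414.1 and 703.1 with antibody, 2.81-fold lower (log2 change −1.49, SE 0.306, adjusted p = 0.00803).

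Pygl, the liver form of glycogen phosphorylase, which releases glucose 1-phosphate (ENSMUSG00000021069, chromosome 12, 70190811 to 70231488), stood at 9905, 14600, 22940 and 23010 normalized counts untreated and 19510, 17860, 12370 and 11350 with antibody on control diet. The high-fat values were 8097, 5773, 5844 and 6084 untreated, and 7063, 6875, 5984 and 8302 with antibody. The diets did not overlap, and Pygl fell 2.35-fold (log2 change −1.23, SE 0.173, adjusted p = 0.00276). Genes for making and for breaking down glycogen therefore fell together. Gys1, the muscle form of glycogen synthase, fell 1.27-fold (−0.35, SE 0.10, adjusted p = 0.0274), a call that held in 10 of the 16 fits with a library left out. Ppp1r3c, another glycogen-targeting subunit, had a change of −0.77 and did not pass (SE 0.265, adjusted p = 0.0528). Adjusted for the thermogenic score, Pygl (−0.82, adjusted p = 0.00603) passed. Ppp1r3b was at −1.37 (adjusted p = 0.142), Gys2 at −0.75 (adjusted p = 0.076) and Gys1 at −0.11 (adjusted p = 0.394).

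The diet comparison was also made without and with antibody, on libraries that are not shared. Both tests used the same estimate of each gene's spread from all 16 libraries, so they are not independent. In the untreated libraries 19 of the 38 genes fell and 0 rose, where 5.17% of all tested genes fell and 2.98% rose, and the median change was −0.782. In 8 genes, Slc2a4, Slc2a5, Khk, G6pdx, Pgd, Tkt, Pcx and Pygl, the 4 high-fat libraries lay below the 4 control-diet libraries, where 5.19% of all tested genes did. In 0 genes they lay above, where 4.54% did. The untreated count depended on single libraries, and so did the count over all genes, which was 1157 in either direction with all libraries. Without untreated control-diet replicate 4, or without untreated high-fat replicate 4, 0 members and 0 of all genes passed. Leaving out untreated control-diet replicate 3 gave 2 members and 93 of all genes, untreated high-fat replicate 3 gave 4 and 82, and untreated high-fat replicate 2 gave 5 and 117. Leaving out untreated control-diet replicate 1 gave 32 members that fell and 4119 of all genes. The median of the 38 genes stayed between −1.06 and −0.617 in these fits. When only these 2 groups were fitted, 0 members and 0 of all genes passed, with a member median of −0.781. The same counts of 0 were found without a pair of libraries doubted in an earlier account of these data (replicate 3 of the untreated control-diet group, replicate 2 of the untreated high-fat group), with a median of −0.730. The thermogenic covariate left 3 members and 29 of all genes, with a median of −0.386, and the muscle covariate 4 and 118, with a median of −0.730.

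In the antibody libraries 0 of the 38 genes passed in limma's fit of all 16 libraries, where 0.00705% of all tested genes did. In the same fit 26 of the 38 genes and 2574 of all 14189 had an unadjusted p under 0.05. The values nevertheless lay apart: in 27 genes the 4 high-fat libraries were below the 4 control-diet libraries, where 9.08% of all tested genes were, and the median change was −0.766. Pfkfb3 alone was above without overlap, at 32340 to 39830 against 27600 to 28570 normalized counts, where 6.38% of all tested genes were. When only the 2 antibody groups were fitted, 21 of the 38 genes fell and 641 of all 14189 genes passed, and with limma's array weights 23 fell and 1099 passed. Muscle marker sums also lay apart between these groups, at 38260 to 209000 on control diet and 202.0 to 10050 on high-fat diet, and all 14 muscle markers were lower on high-fat diet with a median of −6.86. In the fit with the muscle score as a covariate, 0 of the 38 genes passed in this comparison, as did 1 of all genes, and the median of the 38 was −1.10.

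The change had the same sign without and with antibody in all 38 genes, 35 being lower and 3 higher on high-fat diet in both. Of the 35, the fall was smaller with antibody in 25 and larger in 10. For these counts of sign and size the share over all tested genes was not computed. The difference between the diet effects did not pass for any gene in limma's interaction test (0 of 38, 0.0% of all tested genes), and 0 of the 38 genes and 877 of all genes had an unadjusted p under 0.05. Slc2a5 had the widest gap, −4.76 (SE 0.876) untreated and −2.85 (SE 0.876) with antibody.

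**Figure D4:**
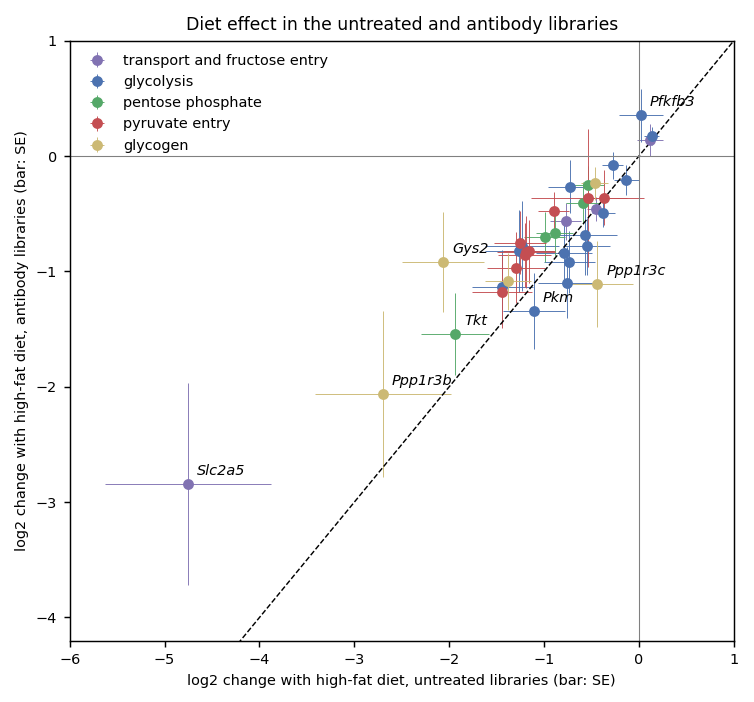
Log2 change of each of the 38 genes with high-fat diet in the untreated libraries (x axis) and in the antibody libraries (y axis), with standard errors; the dashed line marks equal changes. Of the genes, 35 lie below 0 on both axes and 3 above 0 on both, and 25 falls are smaller with antibody. Shares over all tested genes were not computed for these counts.

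The antibody itself changed none of the 38 genes past the threshold. On control diet 0 passed where 0.0987% of all tested genes did, on high-fat diet 0 where 0.0775% did, and averaged over diet 0 where 2.52% did. In limma, 1, 3 and 3 of the 38 genes had an unadjusted p under 0.05 in these comparisons. The counts over all 14189 tested genes were 1651, 1914 and 2386. The median changes, antibody minus untreated, were −0.0575 on control diet and 0.138 on high-fat diet.

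On high-fat diet, 0 genes were lower with antibody without overlap between libraries, where 3.47% of all tested genes were. Higher without overlap were 2 of the 38 genes, where 3.91% of all tested genes were. Such rises were thus about as frequent as among all genes. Slc2a4 stood at 6326 to 7003 normalized counts with antibody and at 4504 to 6293 without. Ppp1r3b stood at 832.4 to 1493 with antibody and at 259.5 to 661.6 without. Neither passed the test in the fit of all libraries. The smallest adjusted p over diets belonged to Pfkp (log2 change −0.30, adjusted p = 0.0602), which passed in 3 of the 16 fits with a library left out. Pfkfb3 had a change of 0.48 (adjusted p = 0.141) and passed in 2 of them. On control diet no gene was without overlap in either direction, where 3.43% of all tested genes were higher and 3.33% lower.

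Shares between isoenzymes, taken per kilobase of exon, are given as values and were not tested. Gys2 made up 27.5% ± 8.97 (SD, n = 4) of Gys1 and Gys2 together in untreated control-diet libraries and 21.2% ± 4.16 with antibody, against 11.6% ± 5.71 and 14.3% ± 2.12 on high-fat diet. Ppp1r3b made up 39.4% ± 18.3 and 57.0% ± 7.98 of its sum with Ppp1r3c on control diet, and 12.1% ± 5.1 untreated and 40.9% ± 6.03 with antibody on high-fat diet. The 4 high-fat antibody libraries, at 33.3% to 47.9%, were all above the 4 untreated high-fat libraries, at 6.11% to 18.1%. Pfkp made up 16.7% ± 8.05 and 13.6% ± 2.25 of Pfkp and Pfkl on control diet and 26.9% ± 6.58 and 20.5% ± 4.67 on high-fat diet. Slc2a4 made up 92.3% to 97.5% of Slc2a4 and Slc2a1 over all libraries.

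A wider list of 67 other sugar genes, of which 61 were tested, was less uniform. Averaged over antibody, 13 fell, 5 rose and 43 did not pass, with a median of −0.144. Over all tested genes 11.1% fell and 8.28% rose, so the rises were about as frequent as among all genes. Among those that fell were Gbe1, the glycogen branching enzyme (−1.07, SE 0.163, adjusted p = 0.00307), Pdhx, the E3-binding component of pyruvate dehydrogenase (−0.74, adjusted p = 0.0125), and Dld, its E3 subunit (−0.68, adjusted p = 0.015). Slc2a3, the glucose transporter GLUT3, rose, from 157.1 ± 16.89 and 238.4 ± 60.29 normalized counts (SD, n = 4) to 486.4 ± 137.2 and 287.2 ± 93.85 (log2 change 0.91, SE 0.18, adjusted p = 0.0072). Slc2a10, another transporter of the family, rose by 0.58 (adjusted p = 0.0396). The 6 macrophage markers were all higher on high-fat diet by some amount, 1 of them past the threshold, with a median of 0.261, and summed to 23110 to 45780 normalized counts on control diet untreated and 29510 to 51320 on high-fat diet untreated. With antibody, 4 of the 6 were higher on high-fat diet, and the sums were 28180 to 37520 on control diet and 30980 to 37270 on high-fat diet. Slc2a3 had a diet change of 1.58 (adjusted p = 0.0136) untreated and 0.25 (adjusted p = 0.639) with antibody, and the difference did not pass (interaction adjusted p = 0.273). The part of these markers in the Slc2a3 values was not tested.

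Of 21 regulators of sugar metabolism, 5 fell with high-fat diet and 0 rose, with a median of 0.036. Over all tested genes 11.1% fell and 8.28% rose. Esrrg and Esrra, orphan nuclear receptors of oxidative genes, changed by −1.47 (adjusted p = 0.0224) and −0.67 (adjusted p = 0.0179). Srebf1, a factor of lipid synthesis genes, changed by −0.59 (adjusted p = 0.0345). Mlxipl, the carbohydrate response element binding protein, and its partner Mlx changed by −0.58 (adjusted p = 0.0454) and −0.53 (adjusted p = 0.00862). With antibody, averaged over diet, Srebf1 (0.80, adjusted p = 0.0324) and Trarg1, a GLUT4 trafficking regulator (0.58, adjusted p = 0.0438), rose. In that comparison 2.52% of all tested genes passed in either direction.

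Since 29 of the genes fell together, the sequence upstream of their start sites was read for 3 short motifs on both strands: CACGTG, the core of the E-box that Mlxipl with Mlx and other factors can bind, GGGCGG, the GC box, and CCAAT. The sequences are from RefSeq on GRCm38.p6, the 250 bases before each RefSeq start, which can lie inside the GENCODE span of the gene, and 35 of the 38 genes matched. Slc2a5, Ldha, Pdhb, Pcx and Pygl are shown, as genes that fell at 5 points of the pathway. Motif matches are in capitals, each sequence runs 5′ to 3′ on the gene's strand, and bases that overlap an annotated exon of the gene were left out.
Slc2a5, chr4:150119094-150119282, plus strand: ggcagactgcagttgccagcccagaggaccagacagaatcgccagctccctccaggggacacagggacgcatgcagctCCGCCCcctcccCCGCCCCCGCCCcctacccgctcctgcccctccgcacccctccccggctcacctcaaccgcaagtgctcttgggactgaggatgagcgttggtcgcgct
Ldha, chr7:46845554-46845803, plus strand: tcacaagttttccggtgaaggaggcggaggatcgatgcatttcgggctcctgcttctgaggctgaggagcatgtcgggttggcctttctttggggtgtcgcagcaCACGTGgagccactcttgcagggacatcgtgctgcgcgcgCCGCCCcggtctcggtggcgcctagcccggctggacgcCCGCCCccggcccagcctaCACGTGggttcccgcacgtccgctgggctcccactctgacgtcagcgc
Pdhb, chr14:8173026-8173242, minus strand: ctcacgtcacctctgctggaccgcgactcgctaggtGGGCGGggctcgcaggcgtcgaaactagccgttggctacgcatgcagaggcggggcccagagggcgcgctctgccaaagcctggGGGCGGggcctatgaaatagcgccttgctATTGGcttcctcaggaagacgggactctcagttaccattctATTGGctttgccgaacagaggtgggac
Pcx, chr19:4510222-4510471, plus strand: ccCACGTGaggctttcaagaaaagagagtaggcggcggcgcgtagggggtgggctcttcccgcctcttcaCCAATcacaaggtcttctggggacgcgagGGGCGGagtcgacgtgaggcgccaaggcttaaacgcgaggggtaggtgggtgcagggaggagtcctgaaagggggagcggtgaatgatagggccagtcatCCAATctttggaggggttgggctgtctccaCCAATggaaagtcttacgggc
Pygl, chr12:70227684-70227933, minus strand: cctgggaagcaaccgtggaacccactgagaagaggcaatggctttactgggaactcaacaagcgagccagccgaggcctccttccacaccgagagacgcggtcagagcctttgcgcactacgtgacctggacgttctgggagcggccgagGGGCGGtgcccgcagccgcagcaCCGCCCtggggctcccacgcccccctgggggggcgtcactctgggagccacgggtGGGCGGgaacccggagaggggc

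CACGTG occurred 2 times upstream of Ldha, 1 time upstream of Pcx and not in these windows of Slc2a5, Pdhb and Pygl. Over the matched genes it was found in 6 of 35, or 17.1%, against 6.86% of the 27025 genes with RefSeq upstream sequence. It was in 3 of the 26 matched genes that fell with high-fat diet (Khk, Ldha and Pcx) and in 3 of the 9 that did not pass (Pfkfb3, Pdk2 and Ppp1r3c). GGGCGG was found in 74.3% of the 35 genes against 35.4% of those 27025 genes, and CCAAT in 48.6% against 37.5%. The 27025 genes were not limited to genes tested here. These shares therefore cannot tell whether an excess is particular to the sugar genes. A match is a description of the sequence, and no binding was measured.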

How the data were processed

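The deposited table holds a linear signal that its header row names by library, 16091 genes in 16 columns, normalized counts by the authors. The submitters' processing notes name limma 3.42.2, Subread 1.6.2, featureCounts, STAR 2.7.0e and fastp 0.20.1, and the builds mm10 and GRCm38, with no role or order. Per the labels' protocols, poly-A RNA was made into stranded libraries. The sources used here give neither the normalization nor whether counting used strand. Values were not whole and reads could not be recovered, so no count model was run.

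Genes above 24.49 normalized counts (the median total over 1e6) in at least 4 libraries were tested (14189, with 1902 left out). The signal was converted to log2(value + 1), which understates changes of low genes, and fitted with limma 3.58.1 in R 4.3.3 over all 16 libraries, 1 mean per group, with a variance trend. Tests were two-sided, with Benjamini-Hochberg adjustment within each of 7 contrasts and a threshold of 0.05. Scores used as covariates are means of a marker list's log2 values. Coordinates and exon lengths come from GENCODE vM21. Exons overlap a tested gene on the opposite strand in Pfkp, Aldoa, Tpi1, Gapdh, G6pdx, Mpc1, Pdha1 and Gys1, and on the same strand in Pkm and Pgls, which leaves those values uncertain. The fit was also run on simulated data with independent noise in each gene. Those data lack differences shared by many genes of a library, so that run cannot tell how such differences affect the counts. Members and lists were chosen with earlier results of these data known. All of the listed genes may be named, with full statistics for those past the threshold, and of the wider and regulator lists at most the 6 largest changes past the threshold in a contrast. A result of the wider list is not reported here. Alternatives were other pseudocounts, filters, scalings, weights, covariates, a replicate block and left-out libraries.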

Additional observations from a re-analysis of the deposited data

Results flagged for a closer look

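In 152 groups of 4 libraries, 8 had a library far from the other 3 by Dixon's 95% critical value for the gap to its neighbour over the group's range. Chance gives about 1 in 20. In 7 of the 8 that library was untreated high-fat replicate 1, the highest of its group: Pfkfb3 at 38440 normalized counts against 20470 in the next library, Eno1 at 10920 against 6759, Ldhb at 1821 against 1007, Pdha1 at 15480 against 9965, Dlat at 5040 against 3072, Gys2 at 794.0 against 257.8 and Pygl at 8097 against 6084. The same library had the highest thermogenic marker sum of its group, 17460 against 3018 to 4316, and their part in these values was not tested. The other was Pgd at 9736 in high-fat antibody replicate 3, against 6975.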

How the results depend on the processing

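The number of genes that fell with high-fat diet averaged over antibody was 29, and 25 to 32 with 1 library left out. It was 13 with the thermogenic score as a covariate and 0 without the 4 libraries of most muscle RNA, an alternative chosen after seeing the data. Over all alternatives the adjusted p of the 29 ranged from 6.89e-05 to 0.655. The number that rose was 0, and 1 with columns rescaled to an equal total, with array weights, without the first untreated library of both diets (also chosen after seeing the data), and 0 to 1 with 1 library left out. In the untreated libraries 19 fell. This was 0 to 32 with 1 library left out, 0 with a replicate block, 4 with the muscle score, 3 with the thermogenic score, 0 without both doubted libraries (replicate 3 untreated on control diet, replicate 2 untreated on high-fat diet), 0 with only the groups compared, 31 without the first untreated library of both diets and 0 without the 4 libraries of most muscle RNA. The number that rose there was 1 with array weights, 1 without the first untreated library of both diets and 0 to 1 with 1 library left out. With antibody 0 fell, but 23 with array weights, 4 with the thermogenic score, 7 without both doubted libraries, 21 with only the groups compared, 15 without the first untreated libraries and 0 to 9 with 1 library left out. The number that rose with antibody on high-fat diet was 0, but 3 with array weights, 3 without the first untreated libraries and 0 to 1 with 1 left out. Averaged over diet, 0 rose with antibody, but 3 with array weights, 1 without the first untreated libraries and 0 to 1 with 1 left out. Averaged over diet, 0 fell with antibody, but 1 with quantile normalization, 1 with array weights, 2 with the thermogenic score, 1 without the first untreated libraries and 0 to 1 with 1 left out. The cause of these shifts was not tested. Same-numbered deviations correlated at −0.539 to 0.487 across genes. For replicate 2 they were positive in every pair of groups, at 0.126 to 0.487, and for replicates 1, 3 and 4 of both signs. Libraries of unlike number were not compared, so these values cannot tell whether the replicate numbers pair the libraries. With the replicate block 25 genes fell averaged over antibody and no member changed with antibody. Signs turned only in genes that had not passed. With the thermogenic score Pdk4 became 0.76 untreated and 0.64 averaged, Slc2a1 −0.14 and −0.088, Pdk2 0.15 and 0.066, and Ppp1r3c 0.0027 untreated. Pdk4 became 0.00999 untreated without both doubted libraries. Pfkfb3 untreated ranged from −0.23 to 0.221 with 1 library left out, negative without untreated control-diet replicate 1 or 2 or untreated high-fat replicate 1, and became −0.37 untreated and −0.0068 averaged without the first untreated library of both diets.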
